A study of Pan troglodytes with 38 samples.

Results

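Heart RNA-seq libraries from chimpanzees were compared by the integrity of the RNA they were made from. The RNA integrity number (RIN) scores how intact the ribosomal RNA of an extract is and falls as RNA breaks down. Of the 38 libraries of the series, 18 entered the comparison. All 18 had their RNA extracted in 1 batch. The low RIN group held the 9 libraries with a RIN of 4.6 or less (range 2.5 to 4.6, median 3.5), and the high RIN group the 9 with a RIN of 6.6 or more (range 6.6 to 8.4, median 7.3). RIN was taken from the sample table of the study and not from a measurement on the reads.

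Each library came from post-mortem heart tissue of a different captive-born animal, and no engineered allele is recorded. Some animals of the study came from laboratories and had been challenged with hepatitis viruses. The low RIN animals were 4 males and 5 females, 4 from Yerkes and 5 from SNPRC, aged 15 to 32 years (median 23, 1 age not given). The high RIN animals were 3 males and 6 females, 5 from Yerkes, 3 from SNPRC and 1 from a zoo in Little Rock, aged 24 to 57 years (median 33.5, 1 age not given). Hepatitis B or C was recorded as positive for 4 low RIN and 3 high RIN animals, and 1 low RIN animal had been exposed to HIV and tested negative. These were all the SNPRC animals, and no virus was recorded for the Yerkes and zoo animals. Site and virus record therefore cannot be told apart here. Age and site thus moved with RIN, and the chamber of the heart, the time from death to freezing and the kinship of these animals did not enter the comparison. The low RIN animals differed from the high RIN animals in more than RNA integrity, so RIN cannot be told apart from what else differed between them.

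Breakdown of RNA after death is carried out by ribonucleases, and it does not reach every transcript at the same rate. When polyadenylated RNA is captured from broken molecules, the fragment that still has the tail is kept, so the far end of a long transcript is the part most easily lost. Some messengers are short-lived in living cells as well. Those of the immediate early genes, which are switched on within minutes of a signal without new protein synthesis, are among the most unstable known. Heart muscle itself is dominated by messengers of the contractile apparatus and of mitochondrial respiration, which are comparatively stable.

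Totals in the gene count table were between 44702234 and 91089623 in the low RIN group and between 43892814 and 132478050 in the high RIN group. Genes of chromosome Y matched the recorded sex in 18 of 18 libraries. The library named Little_R had the lowest median correlation with the other 17 (0.748), followed by 537 (0.807), and both belong to the high RIN group. The other 16 lay at 0.848 or above. Mitochondrially encoded genes took up 48.4% of counts in Little_R and 60.1% in 537. With the high RIN library 558 (53.9%) and the low RIN library 4X0339 (51.7%), these were the 4 libraries of highest mitochondrial share. Results without these 4 thus also leave out Little_R and 537. Heart muscle was present in every library, since 10 cardiomyocyte markers summed to at least 7346 CPM, that is, counts scaled to the total of the library.

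The first question was whether low integrity came with more or fewer reads, genes or mitochondrial counts. Genes with at least 1 CPM, here scaled to the library total only, numbered 11479 to 12853 (median 12548) at low RIN and 12025 to 13160 (median 12232) at high RIN. The mitochondrial share was 26.5% to 51.7% (median 33.9%) at low RIN and 21.5% to 60.1% (median 30.98%) at high RIN. The 20 highest genes held 38.0% to 65.8% of counts (median 46.4%) at low RIN and 33.1% to 69.2% (median 42.9%) at high RIN. The groups overlapped over most of their range in all of these. The mitochondrial share differed by -0.46 percentage points (low minus high RIN) over all libraries, by 4.49 without Little_R and 537, by -6.02 among Yerkes and by 11.03 among SNPRC animals. Exact permutation tests over 18 libraries, two-sided and adjusted over 5 measures, gave adjusted p = 0.933 for the log2 total, the mitochondrial share, the number of genes and the share of the 20 highest genes.

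No gene passed the test between low and high RIN. In edgeR's quasi-likelihood test with sex as a covariate, 0 of 15127 genes were called higher (0%) and 0 were called lower (0%) at an adjusted p under 0.05, and the smallest adjusted p was 0.889. At an unadjusted p under 0.05 there were 752 genes (4.97%), of which 300 were higher (1.98%) and 452 lower (2.99%) at low RIN. limma-voom called 0 genes as well, with 500 at an unadjusted p under 0.05. DESeq2 called 9 genes (0.0595%), 2 higher and 7 lower, and had 1070 at an unadjusted p under 0.05. The median standard error of a gene's log2 difference was 0.29, with a median half-width of the 95% interval of 0.61. For 9467 genes (62.6%) the whole interval lay within a 2-fold difference in either direction, so larger differences lay outside it. log2 differences below are low minus high RIN and levels are CPM scaled by the trimmed mean of M-values (TMM).

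Spread within the groups was of a similar size. The median SD of a gene's log2 CPM was 0.45 over the low RIN libraries and 0.50 over the high RIN libraries, and 60.7% of genes varied more at high RIN. Without Little_R and 537 the median SD of the high RIN libraries was 0.36, and 31.2% of genes varied more at high RIN. The direction of that comparison therefore changed with these 2 libraries. They were the 2 with the lowest correlations, and leaving them out by itself lowers the spread of their group. The low RIN group kept all 9 libraries, so these shares do not settle which group varied more.

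Immediate early genes stood on the low side in the low RIN libraries, although none passed edgeR's adjusted test. DESeq2 called 4 of them, EGR3, FOSB, EGR1 and ATF3. These genes encode transcription factors such as FOS, EGR1 and NR4A1 and early regulators of signalling such as DUSP1. All 36 tested members of the list had a log2 difference below 0, with a median of -1.16, against a median of -0.02 over all 15127 genes. An unadjusted p under 0.05 was reached by 22 of the 36 (61.1%), all lower at low RIN, against 2.99% of all genes. The sum of the list was 707 to 1968 CPM (median 973) at low RIN and 839 to 6727 CPM (median 1830) at high RIN. The groups overlapped: the high RIN libraries 554 and 4X0095 lay below the low RIN median, and the low RIN library 495 lay above the high RIN median. The list was chosen with earlier results of these data known.

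**Figure D1:**
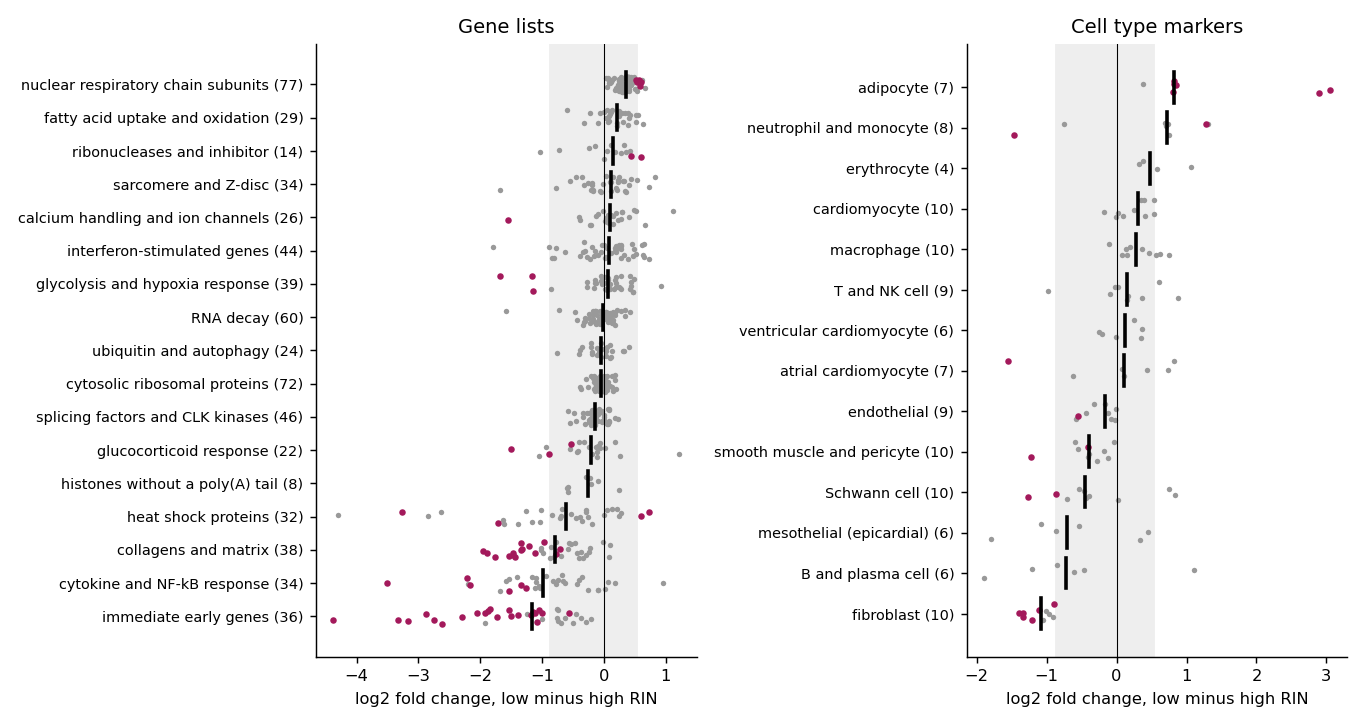
log2 difference (low minus high RIN) of every tested member of each gene list (left) and marker list (right), with the number of members tested in parentheses and the 13 mitochondrially encoded genes left out. Bars are list medians, purple points have an unadjusted p under 0.05, and the grey band spans the central 90% of all 15127 genes; the immediate early genes have the lowest median (-1.16) and the adipocyte markers the highest (0.82) with all libraries; the latter is 0.32 without 4X0267.

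EGR3, an early growth response transcription factor, had the smallest p of all genes. Its level was 0.20 to 1.43 CPM (median 0.65) at low RIN and 0.33 to 42.3 CPM (median 4.22) at high RIN. The high RIN library 554, at 0.33 CPM, was the only one of its group inside the low RIN range. The log2 difference was -3.33 (SE 0.66, unadjusted p = 7.96e-05, edgeR adjusted p = 0.889). The library counts behind it ran from 15 to 5660 reads. DESeq2 gave EGR3 an adjusted p of 0.000148, and without library 554 edgeR gave 0.241. The adjusted p over all other alternatives was between 0.241 and 1.

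Other transcription factors of the list were spread over a wide range among the high RIN libraries. FOSB was 0.16 to 4.23 CPM (median 0.42) at low RIN and 0.17 to 108 CPM (median 1.30) at high RIN, a log2 difference of -4.38 (SE 1.07). EGR1 was 3.90 to 47.0 CPM (median 5.28) at low RIN and 4.32 to 329.5 CPM (median 33.1) at high RIN, a log2 difference of -3.17 (SE 0.83). In both genes the highest low RIN library was 495, and the 2 highest high RIN libraries were 295 and Little_R. NR4A1, an orphan nuclear receptor, was 25.4 to 239 CPM (median 32.1) at low RIN and 24.5 to 1001 CPM (median 136) at high RIN. All 3 genes had an edgeR adjusted p of 0.889, and the groups overlapped in each. DESeq2 gave adjusted p of 0.0128 for FOSB, 0.0169 for EGR1 and 0.189 for NR4A1. Among SNPRC animals the log2 differences were -1.58 for FOSB, -1.70 for EGR1 and -0.24 for NR4A1, and without the 4 libraries of highest mitochondrial share EGR1 was at -1.67. With age in the fit FOSB was at -2.26 and NR4A1 at -0.72.

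Further members had the same order of medians, of which ATF3 and FOS were chosen after their values were seen. ATF3, a stress-induced transcription factor, had medians of 6.95 CPM at low and 29.4 CPM at high RIN, a log2 difference of -2.88 (SE 0.78, edgeR adjusted p = 0.889, DESeq2 adjusted p = 0.0274). FOS had medians of 3.34 and 8.995 CPM (log2 difference -2.74, SE 0.83). DUSP1, a phosphatase that switches off MAP kinases, had medians of 48.7 and 86.2 CPM (log2 difference -1.50, SE 0.53). The log2 difference of DUSP1 was -0.59 among SNPRC animals and -0.57 without the 4 libraries of highest mitochondrial share. MCL1, which protects against apoptosis and has a short-lived messenger, was 83.7 to 228 CPM (median 120) at low RIN and 133 to 1143 CPM (median 165) at high RIN. Little_R held the highest MCL1 value.

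**Figure D2:**
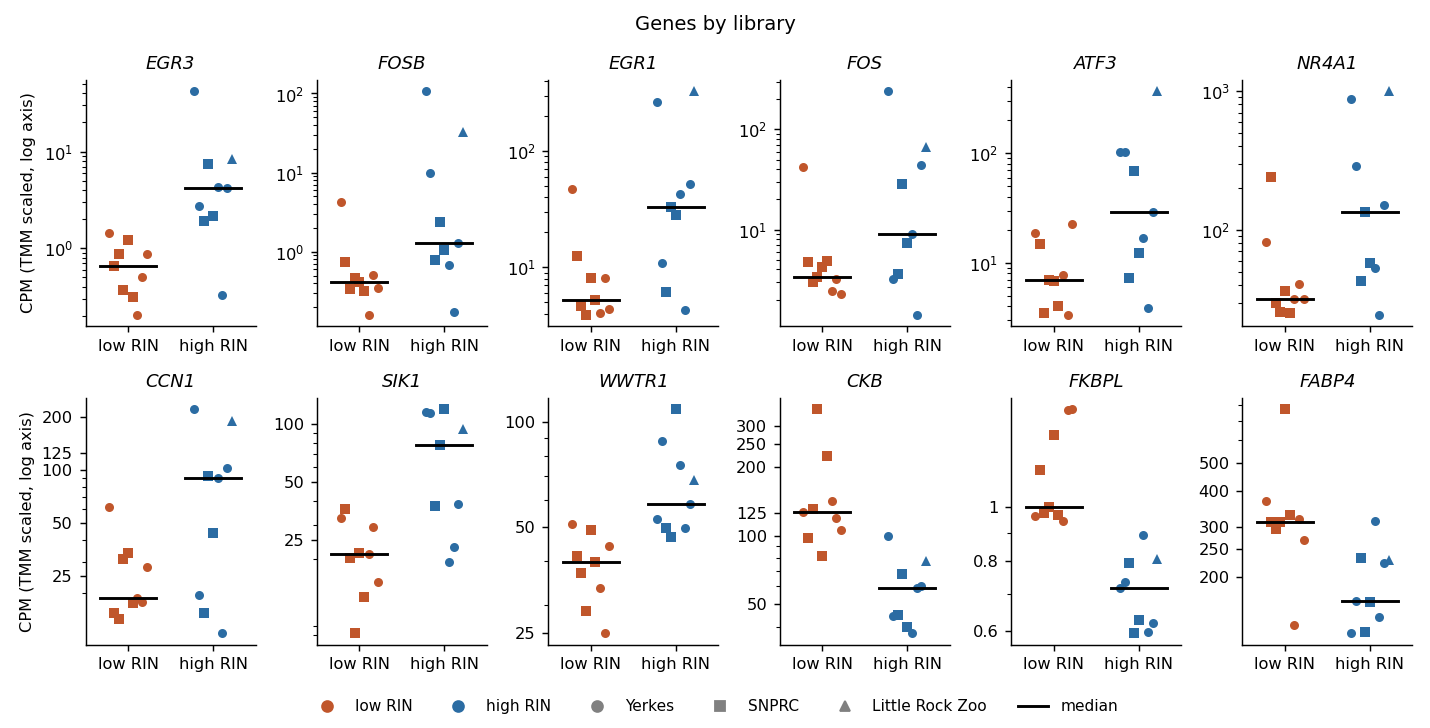
CPM (TMM scaled, logarithmic axes) of 12 genes in each of the 9 low RIN and 9 high RIN libraries; bars are group medians and symbols give the site. Only FKBPL separates the groups, EGR3 does so but for 1 high RIN library at 0.33 CPM, and CCN1, NR4A1 and FOS overlap more.

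The side on which these genes stood held when libraries were left out and within sites. Without Little_R and 537, all 36 members were again lower at low RIN, 18 of them at an unadjusted p under 0.05, with a median log2 difference of -0.83. Without the 4 libraries of highest mitochondrial share, which include Little_R and 537, 33 of 36 were lower and the median was -0.59. Among Yerkes animals 31 of 36 were lower (median -0.84), and among SNPRC animals 35 of 36 were lower (median -0.84). With age beside sex in the fit, over 16 libraries, 35 of 36 were lower (median -1.31) and 19 had an unadjusted p under 0.05. Leaving out 1 library at a time moved the median between -1.36 and -0.79 and the number of members at an unadjusted p under 0.05 between 15 and 31.

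Genes outside the list were also among the 10 smallest p of those lower at low RIN. SIK1, a salt-inducible kinase that is itself quickly induced, was 8.198 to 36.2 CPM (median 21.2) at low RIN and 19.3 to 119 CPM (median 78.1) at high RIN (log2 difference -1.71, SE 0.38). RGS4, which shortens G-protein signalling, was 0.32 to 2.45 CPM (median 0.55) at low RIN and 0.66 to 23.6 CPM (median 2.59) at high RIN (log2 difference -2.72, SE 0.70). INHBA, a subunit of activin, was 0.81 to 5.72 CPM (median 1.74) at low RIN and 2.33 to 36.6 CPM (median 6.08) at high RIN (log2 difference -2.07, SE 0.56). In each of these 3 genes the high RIN median lay above every low RIN library. edgeR gave all 3 an adjusted p of 0.889, and DESeq2 called SIK1 and RGS4 (adjusted p = 0.0169 for both). RGS4 was at -1.002 without the 4 libraries of highest mitochondrial share and at -1.05 among SNPRC animals, and INHBA at -1.06 and -0.73. LTBP2, a matrix protein, had medians of 16.99 and 41.5 CPM and a log2 difference of -2.02 (SE 0.55), with 390 CPM in the highest high RIN library. It was at -1.04 without Little_R and 537, at -0.43 without the 4 libraries of highest mitochondrial share and at -0.64 among SNPRC animals.

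WWTR1 (TAZ), a transcriptional coactivator, was 24.9 to 51.3 CPM (median 39.8) at low RIN and 47.1 to 108 CPM (median 58.4) at high RIN. Its log2 difference of -0.79 (SE 0.18) was -0.77 among Yerkes and -0.74 among SNPRC animals, and DESeq2 gave an adjusted p of 0.0468 against 0.889 in edgeR. AMOTL1, an angiomotin family member, was 16.1 to 38.6 CPM (median 31.6) at low RIN and 37.6 to 79.4 CPM (median 44.1) at high RIN, and its ranges met only at library 4X0339 (38.6), 495 (37.8) and 554 (37.6). CCN1, a matrix-bound signalling protein, was 14.3 to 61.8 CPM (median 18.7) at low RIN and 11.8 to 219.5 CPM (median 89.6) at high RIN. Its log2 difference of -1.84 (SE 0.49) was -1.21 without the 4 libraries of highest mitochondrial share.

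Among the genes that were higher at low RIN, CKB had the smallest p. It encodes the brain-type creatine kinase, a minor form in adult heart beside the muscle type. CKB was 81.6 to 355 CPM (median 127) at low RIN and 37.4 to 99.96 CPM (median 58.9) at high RIN. Only 4X0354 (81.6) and 4X0212 (97.1) of the low RIN group lay below the highest high RIN library. The log2 difference was 1.34 (SE 0.28, unadjusted p = 0.00016, edgeR adjusted p = 0.889) and DESeq2 gave an adjusted p of 0.0169. It was 1.01 among Yerkes and 1.76 among SNPRC animals.

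FKBPL, an FK506-binding-like protein, was the only 1 of 15127 genes (0.00661%) whose groups did not overlap. It was 0.94 to 1.49 CPM (median 1) at low RIN and 0.60 to 0.89 CPM (median 0.72) at high RIN. The counts behind it ran from 23 to 126 reads in a library. Its log2 difference was 0.70 (SE 0.20, edgeR adjusted p = 0.889, DESeq2 adjusted p = 0.041).

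The other 8 genes with the smallest p higher at low RIN had overlapping groups. PHACTR3 had medians of 1.51 CPM at low RIN and 0.34 CPM at high RIN, with the low RIN library 676 (0.23 CPM) inside the high RIN range and 503 (0.10 CPM) under it. CIART, a repressor of the circadian clock, was 2.53 to 14.2 CPM (median 5.93) at low RIN and 1.89 to 4.66 CPM (median 2.49) at high RIN. ULK4 was 2.51 to 36.4 CPM (median 13.7) at low RIN and 2.08 to 9.28 CPM (median 6.21) at high RIN. Its log2 difference was 2.01 among Yerkes and 0.50 among SNPRC animals. SERINC2, OPN4, WDR49, ESRP2 and MRM1 had log2 differences between 0.72 and 2.36. WDR49 was the only one of the 10 whose sign turned, to -0.56 among SNPRC animals.

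Nuclear genes of the respiratory chain were all on the high side at low RIN, by small amounts. All 77 members of the list, which encode subunits of the complexes that make ATP in mitochondria, had a log2 difference above 0, from 0.03 to 0.67 with a median of 0.36. An unadjusted p under 0.05 was reached by 5 (6.49%), against 1.98% of all genes higher at low RIN. Leaving out 1 library at a time gave between 1 and 18, with 18 without 476 and 13 without 495. ATP5F1B, a catalytic subunit of ATP synthase, was 529 to 2936 CPM (median 1566) at low RIN and 288 to 2861 CPM (median 1487) at high RIN. The sum of the list was 11063 to 34563 CPM (median 28067) at low RIN and 6214 to 34320 CPM (median 20013) at high RIN, with 537 and Little_R lowest. Without these 2 libraries, 56 of 77 were above 0 with a median of 0.12 and none had an unadjusted p under 0.05. Without the 4 libraries of highest mitochondrial share 40 of 77 were above 0 and the median was 0.00. With age in the fit, all 77 were above 0, the median was 0.72 and 44 had an unadjusted p under 0.05, in the 16 animals whose age is given.

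Contractile and calcium-handling genes differed less. In the sarcomere and Z-disc list 19 of 34 members were above 0 (median 0.11) and 0 had an unadjusted p under 0.05. MYH7, the main ventricular myosin heavy chain, was 3531 to 27333 CPM (median 15393) at low RIN and 1083 to 28459 CPM (median 20120) at high RIN. DES, the muscle intermediate filament, had medians of 10328 and 11517 CPM. Their log2 differences of -0.01 (SE 0.54) and 0.12 (SE 0.35) were smaller than their errors. Of 26 calcium and ion channel genes, 1 (3.85%) had an unadjusted p under 0.05, lower at low RIN, against 2.99% of all genes. It was SLN, an inhibitor of the calcium pump found in atria, with medians of 0.13 CPM at low and 0.37 CPM at high RIN. The counts behind SLN ran from only 1 to 50 reads in a library. SLN was named after its values were seen, as were RNASET2, GPD1, PLIN1, ADIPOQ, LEP, HSPH1 and IL6. Fatty acid oxidation genes were above 0 in 24 of 29 (median 0.22), with 0 at an unadjusted p under 0.05.

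Collagen and matrix genes stood on the low side at low RIN. Of 38 members, 36 were below 0 with a median of -0.79. An unadjusted p under 0.05 was reached by 15 (39.5%), all lower, against 2.99% of all genes. FN1, fibronectin, was 39.7 to 345 CPM (median 116) at low RIN and 69.8 to 913 CPM (median 348) at high RIN. COL1A1, a chain of type I collagen, was 10.52 to 58.4 CPM (median 36.2) at low RIN and 14.2 to 233 CPM (median 68.9) at high RIN. Both were picked after their values were seen, and both were highest in 537. SPARC, one of the 2 members with the highest mean, had medians of 266 and 343 CPM, and TIMP3, the other, 542 and 499 CPM.

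**Figure D3:**
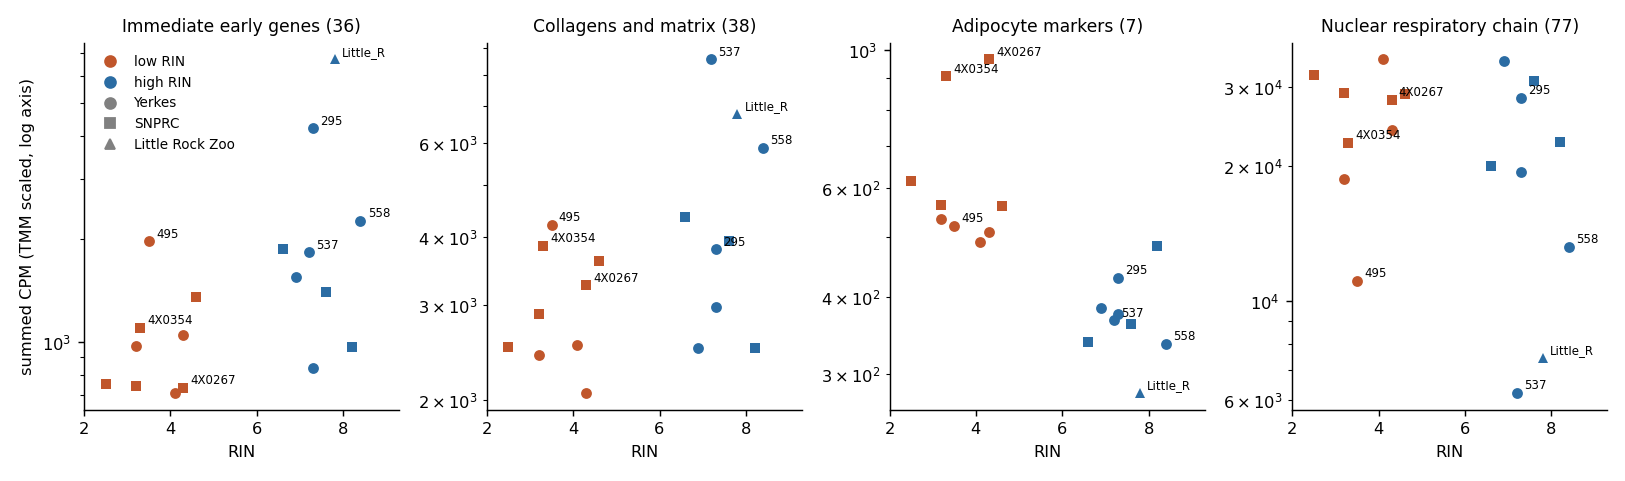
Summed CPM (TMM scaled, logarithmic axes, no correction for length) of 4 gene lists in the 18 libraries against RIN, with symbols for the site. The 7 adipocyte markers are the only one of these lists whose sums do not overlap between the groups (491 CPM and above at low RIN, 483 CPM and below at high RIN), and 537 and Little_R have the lowest respiratory chain sums.

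Fibroblast markers, some of which are on the matrix list as well, were below 0 in 10 of 10 (median -1.08). Of these, 6 (60%) had an unadjusted p under 0.05, against 2.99% of all genes lower at low RIN. DCN, decorin, was 182 to 1120 CPM (median 363) at low RIN and 254 to 4000 CPM (median 588) at high RIN. These counts rested on a few libraries. Without Little_R and 537, 33 of 38 matrix genes were below 0 with a median of -0.35, 2 of them at an unadjusted p under 0.05, and 0 of the 10 fibroblast markers had such a p. Without the 4 libraries of highest mitochondrial share the matrix median was -0.09. It was -1.07 among Yerkes and -0.21 among SNPRC animals. Without library 537 alone, 4 matrix genes and 0 fibroblast markers had an unadjusted p under 0.05, and without Little_R alone 11 and 2. In these bulk samples, fewer cells of a type and less RNA per cell cannot be told apart.

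Adipocyte markers were on the high side at low RIN. All 7 tested markers were above 0 with a median of 0.82, and 6 (85.7%) had an unadjusted p under 0.05, against 1.98% of all genes higher at low RIN. Their sum was 491 to 966 CPM (median 560) at low RIN and 280 to 483 CPM (median 367) at high RIN, without overlap. FABP4, a fatty acid carrier of adipocytes that capillary endothelium also expresses, was 137 to 769 CPM (median 313) at low RIN and 128 to 314 CPM (median 165) at high RIN. GPD1, which makes glycerol phosphate for fat, was 49.3 to 178 CPM (median 88.4) and 27.03 to 81.3 CPM (median 49.8). The low RIN library 503 had the lowest FABP4 of its group, inside the high RIN range.

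The defining adipocyte genes did not share this pattern over all libraries. ADIPOQ, adiponectin, was at 0 in 5 of the 18 libraries and reached 8164 counts in the low RIN library 4X0267. LEP, leptin, was at 0 in 11 libraries, with 1079 counts in 4X0267. PLIN1, the coat protein of fat droplets, was 94.4 CPM in 4X0267 and at most 1.40 CPM in the other low RIN libraries, with a high RIN maximum of 3.42 CPM in 4X0095. 4X0267 thus held nearly all reads of these genes, while FABP4 was highest in 4X0354. Without 4X0267 alone, the median was 0.32 and 2 of 7 markers had an unadjusted p under 0.05. Among Yerkes animals 6 of 7 markers were above 0 with 0 at an unadjusted p under 0.05, and among SNPRC animals 6 of 7 with 2.

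Heat shock genes were dominated by a single library. Their sum was 11019 to 18553 CPM at low RIN and 8025 to 16496 CPM in 8 high RIN libraries, but 122129 CPM in Little_R. HSP90AA1, an inducible HSP90, was 353 to 2706 CPM (median 624) at low RIN and 581 to 28288 CPM (median 1185) at high RIN. HSPH1, an HSP110 chaperone, was 6984 CPM in Little_R and at most 128 CPM in the other high RIN libraries. HSPB7, a small heat shock protein of muscle, had medians of 3355 and 3167 CPM. The list median was -0.61 with all libraries, -0.11 without Little_R and 537, and 0.17 among Yerkes animals, where 24 of 32 genes were above 0.

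Cytokine and NF-kB response genes had a median of -0.99, with 30 of 34 below 0. An unadjusted p under 0.05 was reached by 6 (17.65%), all lower, against 2.99% of all genes. IL6 was 0.03 to 2.001 CPM (median 0.08) at low RIN and 0.09 to 29.6 CPM (median 0.85) at high RIN, highest in Little_R. SOD2 and STAT3, the 2 members with the highest mean, had log2 differences of 0.03 (SE 0.23) and 0.18 (SE 0.32). Without Little_R and 537 the list median was -0.17 and 1 member had an unadjusted p under 0.05. That number was 1 without Little_R alone, 3 without 537 alone and 11 without 495 alone. Without the 4 libraries of highest mitochondrial share the median was 0.34, on the other side of 0.

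The 13 mitochondrially encoded genes were of 2 kinds. Most of them had no wide break between libraries. MT-CO1, a catalytic subunit of complex IV, ranged from 124464 to 461485 CPM at low RIN (median 209172) and from 87201 to 428738 CPM at high RIN (median 168007). MT-CO1 was highest in 4X0339, 537, 558 and Little_R. MT-ATP6, MT-CO3 and MT-ND6, by contrast, had levels that were far apart between libraries. MT-ATP6 was 21.2 to 309 CPM in 12 libraries and 9933 to 29184 CPM in the other 6. MT-CO3 was 14.5 to 102.5 CPM in those 12 and 4900 to 11690 CPM in the same 6, and MT-ND6 1.53 to 7.64 and 775 to 2322 CPM.

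**Figure D4:**
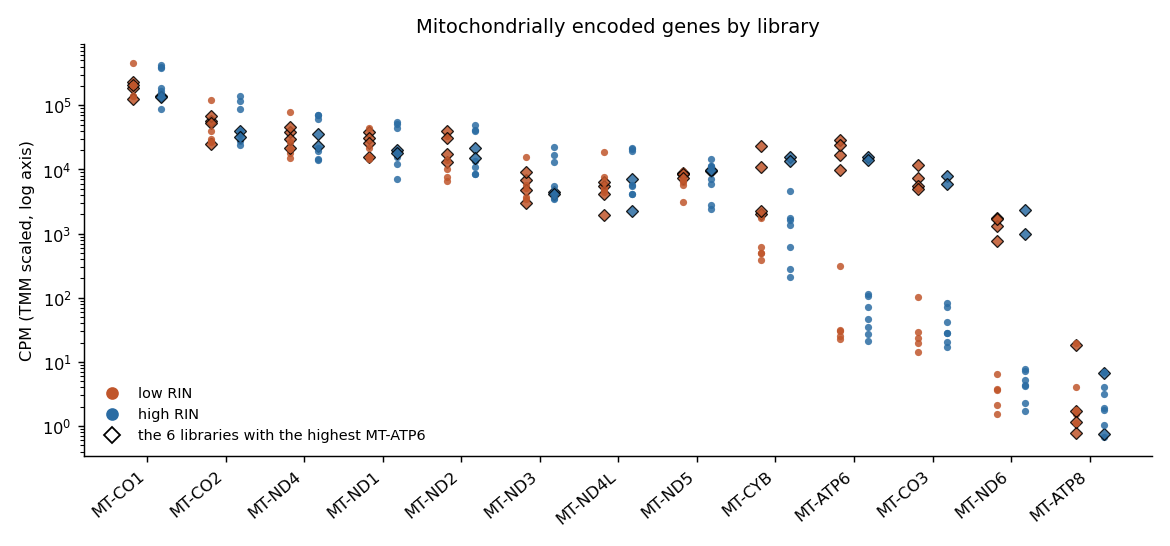
CPM (TMM scaled, logarithmic axis) of the 13 mitochondrially encoded genes in each low RIN and high RIN library. Diamonds mark the 6 libraries with the highest MT-ATP6 (9933 CPM and above), which also hold the highest MT-CO3 and MT-ND6, while for MT-CO1 they lie among the others.

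The 6 libraries were 495, 4X0267, 4X0354 and 4X0357 of the low RIN group and 295 and 4X0550 of the high RIN group. Together the 3 genes took up 2.01% to 3.48% of all counts there and at most 0.0276% in the other 12. The log2 differences between the RIN groups, 4.90 for MT-ATP6 (SE 2.20), 4.44 for MT-CO3 (SE 2.22) and 5.04 for MT-ND6 (SE 2.73), followed from 4 against 2 libraries on the high side and had edgeR adjusted p of 0.889. MT-CYB had medians of 1730 CPM at low and 1603 CPM at high RIN and spanned 208 to 23491 CPM, and the same 6 libraries were not all apart in it. The remaining mitochondrial genes had log2 differences between -0.78 and 0.00. Nuclear copies of mitochondrial DNA can share reads with these genes, so a count of a single mitochondrial gene is uncertain.

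Genes that act on RNA itself were taken as 2 lists, and only the RNA decay list was close to 0. Of 60 RNA decay genes, which encode deadenylases, the exosome, decapping enzymes and nonsense-mediated decay factors, 0 had an unadjusted p under 0.05 and the median was -0.01. CNOT1, the scaffold of the CCR4-NOT deadenylase, had medians of 84.2 CPM at low and 88.4 CPM at high RIN (log2 difference 0.05, SE 0.18). Of 14 ribonucleases and their inhibitor, 10 were above 0 (median 0.15) and 2 (14.3%) had an unadjusted p under 0.05, both higher at low RIN, against 1.98% of all genes. RNASE1, a secreted ribonuclease, was 51.0 to 111 CPM (median 61.7) at low RIN and 28.4 to 84.1 CPM (median 47.6) at high RIN (log2 difference 0.45, SE 0.20). RNASET2, a lysosomal ribonuclease, had medians of 8.72 and 6.17 CPM (log2 difference 0.60, SE 0.22). RNH1, the ribonuclease inhibitor, had medians of 106 and 94.6 CPM.

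Housekeeping lists and several others had medians between -0.25 and 0.08, against -0.02 over all genes. Cytosolic ribosomal proteins had a median of -0.05 with 0 of 72 at an unadjusted p under 0.05, and RPS3A had medians of 604 and 530 CPM, although 4 identifiers carry that symbol and reads can be split among them. Splicing factors had a median of -0.14 with 0 of 46, ubiquitin and autophagy genes -0.04 with 0 of 24. Histone genes, listed as lacking a poly(A) tail, had a median of -0.25 with 0 of 8. Only 8 of the 40 listed histone genes were tested. Polyadenylated RNA was captured, so their counts cannot be read as RNA without a tail. Below 0 were 51 of 72 ribosomal protein, 36 of 46 splicing, 14 of 24 ubiquitin and autophagy and 7 of 8 histone genes. Interferon-stimulated genes had a median of 0.08 with 0 of 44 at an unadjusted p under 0.05. Leaving out 1 library at a time moved that median between -0.19 and 0.34. The median CPM of the group was lower at low RIN in only 5 of these 44 genes. Glycolysis and hypoxia genes had a median of 0.06 with 3 of 39 (7.69%), all lower, against 2.99% of all genes. GAPDH, by contrast, had a log2 difference of 0.47 (SE 0.32). The glucocorticoid list had a median of -0.21, with 18 of 22 below 0. An unadjusted p under 0.05 was reached by 3 of 22 (13.6%), all lower. DUSP1, which the immediate early list holds too, was 1 of these. None of the 19 RNAs of the nuclear-retained list carried its symbol in the table.

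Markers of other cells were described by the same counts. Of all genes, 1.98% were higher and 2.99% lower at low RIN at an unadjusted p under 0.05. Cardiomyocyte markers had a median of 0.30 with 0 of 10 at an unadjusted p under 0.05, and 0.03 without Little_R and 537. Atrial and ventricular markers had medians of 0.11 and 0.12, and the atrial peptide gene NPPA ranged from 1.33 to 7502 CPM at low RIN and from 0.79 to 1887 CPM at high RIN. Endothelial markers were all 9 below 0 (median -0.16, 1 at an unadjusted p under 0.05), and smooth muscle and pericyte markers all 10 (median -0.40, 2). Macrophage markers had a median of 0.28 with 0 of 10, T and NK cell markers 0.16 with 0 of 9, and B and plasma cell markers -0.73 with 0 of 6. Neutrophil and monocyte markers had a median of 0.72 with 1 higher and 1 lower of 8 at an unadjusted p under 0.05. The median was -0.45 for Schwann cell markers with 2 of 10, both lower. It was -0.70 for mesothelial markers with 0 of 6 and 0.48 for erythrocyte markers with 0 of 4. Several of these medians rested on 1 library. The mesothelial median was 0.44 without Little_R, the Schwann cell median -0.10 without 537 and -0.83 without 4X0267, and the B and plasma cell median -0.31 without 4X0333. Without 4X0212 the neutrophil median was 0.21 and the erythrocyte median 0.06, and without 537 the latter was 1.01. The T and NK cell median ranged from -0.31 to 0.33, the macrophage median from 0.08 to 0.52, the atrial median from -0.07 to 0.42, the ventricular median from -0.03 to 0.29 and the endothelial median from -0.27 to -0.03 as 1 library was left out.

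Change was set against transcript length as well, and the cause of any relation to length was not tested. Lengths were those of the orthologous exons of each gene, over 16515 genes of the exon count table. The median log2 difference went from 0.03 in the shortest decile (median 500 bases) to -0.09 in the longest decile (median 10816 bases), and Spearman's rho across genes was -0.13. Genes are not independent, so no p was computed for it. Over all lengths, 294 genes were higher and 482 lower at an unadjusted p under 0.05. There were 57 higher and 28 lower in the shortest decile, and 7 higher and 81 lower in the longest, of 1652 genes each. edgeR called 0 genes in this table too, with 776 (4.7%) at an unadjusted p under 0.05.

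**Figure D5:**
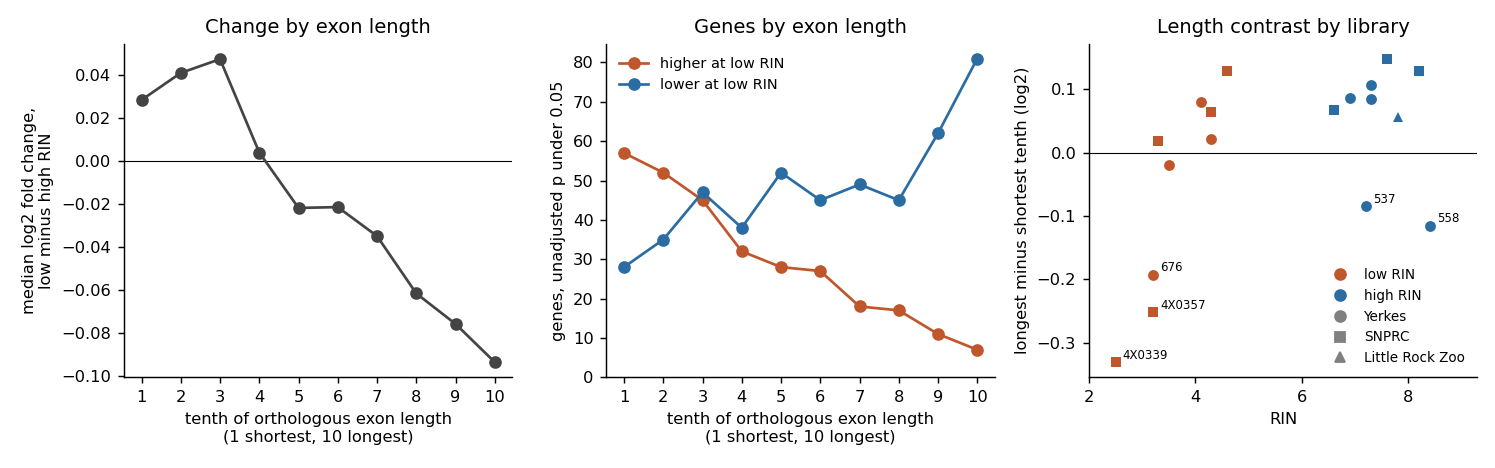
Left, median log2 difference (low minus high RIN) in deciles of exon length; middle, genes at an unadjusted p under 0.05 in each decile, by direction; right, length contrast (longest minus shortest decile, log2) of each library against RIN. The median goes from 0.03 to -0.09, and the 3 lowest contrasts belong to libraries with a RIN of 3.2 or less.

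A length contrast was then computed for each library, as the mean deviation of log2 CPM in the longest decile minus that in the shortest. It was -0.33 to 0.13 (median 0.02) at low RIN and -0.12 to 0.15 (median 0.09) at high RIN. The mean difference of -0.11 did not pass the exact permutation test (two-sided p = 0.109, adjusted p = 0.545 over 5 measures). The 3 lowest contrasts belonged to low RIN libraries, 4X0339 (-0.33, RIN 2.5), 4X0357 (-0.25, RIN 3.2) and 676 (-0.19, RIN 3.2). The low RIN library 4X0354, with a RIN of 3.3, had a contrast of 0.02, and the next lowest contrasts after the 3 were those of the high RIN libraries 558 (-0.12, RIN 8.4) and 537 (-0.08, RIN 7.2). With the longest and shortest quartile the difference was -0.10, with an exact permutation p = 0.0373 and an adjusted p = 0.186. The difference between the longest and shortest decile was -0.04 among Yerkes animals (exact permutation p = 0.579). It was -0.19 among SNPRC animals (exact permutation p = 0.143). The quartile contrast was not split by site.

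Each site alone was compared as well, which also divided the animals by virus record, since only the SNPRC animals had a virus infection or exposure recorded. edgeR called 0 genes among the 9 Yerkes animals (429 at an unadjusted p under 0.05) and 0 among the 8 SNPRC animals (1038 at an unadjusted p under 0.05). The difference between the sites in the effect of RIN, fitted as an interaction over 17 libraries without Little_R, gave 0 genes at an adjusted p under 0.05 of 15256, with a smallest adjusted p of 0.0799 and 786 at an unadjusted p under 0.05. With age as a covariate there were 1738 genes at an unadjusted p under 0.05 over 16 libraries and 0 called, with a smallest adjusted p of 0.195.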

How the data were processed

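The authors extracted RNA from frozen post-mortem heart tissue, captured polyadenylated RNA with a TruSeq v2 kit and sequenced single-end reads. The deposited gene table holds raw counts that the authors obtained with STAR 2.6.1b (version from the submitters' processing notes) for 31373 genes of the chimpanzee annotation, of which 18040 have a symbol. Which strand column was taken is not given in the sources used here, so overlapping and antisense genes cannot be told apart. The deposited orthologous exon table holds counts for 44125 genes from featureCounts 1.6.3, with exon lengths. The normalized matrix and the human table were not used, and 52 per-sample columns could not be tied to a sample. No genome of the build was used, so coordinates and sequences are not given.

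RIN, sex, age and site came from the study's sample table. Replicates are separate animals. The members and all gene lists were chosen with earlier results of these data known. Counts were tested with edgeR 4.0.16 (TMM, filterByExpr, quasi-likelihood test, sex as covariate) over 18 libraries, with Benjamini-Hochberg adjustment and a threshold of 0.05. DESeq2 1.42.0 and limma-voom (limma 3.58.1) were alternatives. SE is the log2 difference divided by the square root of its F statistic. Values of single libraries were tested by exact permutation over all 48620 assignments of the 18 libraries, two-sided, for which the smallest possible p is 4.11e-05. A pseudocount of 0.5 CPM was used in log2 values of libraries. Total counts were at least 43892814. Other tools were R 4.3.3, data.table (version 1.17.8), Python 3.11.15, pandas 2.3.3, numpy 2.4.6, scipy 1.17.1 and matplotlib 3.10.9. The steps were tested on simulated data.

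Genes were named by rule: since edgeR called none, the 10 with a symbol and the smallest p in each direction, the 2 members of each list with the highest mean CPM, and the 13 mitochondrially encoded genes. Others are marked as picked after their values were seen. 1 gene that the rule names is not reported here. Where several identifiers share a symbol, the one with the highest mean was used. Alternatives were no TMM, no mitochondrial genes, no filter or 6 CPM, other tools and covariates, RIN as a number, subsets of libraries, each site, and each library left out. Lists under these alternatives and the interaction with site were added after seeing the data.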

Additional observations from a re-analysis of the deposited data

Results flagged for a closer look

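A library was marked where its distance to the nearest other of its 9 was over Dixon's critical share of the range of its group, on the log2 scale for genes. Of 194 groups of values tested, 18 (9.28%) were marked, where chance marks about 1 in 20 (9.7). Little_R accounts for 7 of them and 4X0354 for 6.

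In the high RIN group Little_R was highest for AMOTL1 (79.4 CPM), MCL1 (1143 CPM), HSP90AA1 (28288 CPM), HNRNPA2B1 (792 CPM), XBP1 (123 CPM) and KRT19 (38.7 CPM), and lowest for S100B (3.97 CPM), a gene of Schwann cells. HNRNPA2B1 encodes an RNA-binding protein of splicing and XBP1 a factor of the unfolded protein response.

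In the low RIN group 4X0354 was lowest for ALDOA (578 CPM), SOD2 (55.6 CPM), SMG5 (79.3 CPM), PLIN4 (22.1 CPM) and KRT8 (24.5 CPM), and highest for DDX5 (756 CPM), an RNA helicase. Library 495 was highest for FOSB (4.23 CPM) and EGR1 (47.0 CPM) and lowest for MYL2 (363 CPM), the ventricular myosin light chain. 4X0339 was highest for MT-CO1 (461485 CPM), and 676 was lowest for MT-ND5 (3106 CPM).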

How the results depend on the processing

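Calls stayed at 0 in both directions under the alternatives run in edgeR and limma-voom, each library left out included. DESeq2 called 2 higher and 7 lower, of which 1 at a threshold of 0.01. Genes at an unadjusted p under 0.05 (752) numbered 462 without TMM, 1534 without a filter, 500 with limma-voom, 459 with site as a covariate, 1738 with age and 429 among Yerkes animals, and between 494 and 1211 when 1 library was left out. The lowest number came without Little_R and the highest without library 495. The cause was not tested, except that the unfiltered fit tests more genes (26147). The share of the 20 highest genes differed by -0.96 percentage points with all libraries and by 12.2 among SNPRC animals (exact permutation p = 0.143). The difference in mitochondrial share changed sign from -0.46 to 4.49 percentage points without Little_R and 537 and to 11.03 among SNPRC animals, and that in genes with at least 1 CPM from 51.8 to -27.2 and -308.9. It was -88.1 for genes with 1 count at equal depth. The moves in mitochondrial share and in the number of genes were within 1 SD between libraries. The move in the share of the 20 highest genes among SNPRC animals was larger than 1 SD. None of these differences had an exact permutation p under 0.05. Of the 10 genes with the smallest p in each direction, WDR49 alone turned sign, among SNPRC animals. Counts of immediate early, matrix, respiratory chain, heat shock and cytokine genes are given above without the libraries on which they rest. TMM moved the median of all genes by less than 0.1 on the log2 scale. No paired analysis was possible because replicate numbers here only name libraries. The table of orthologous exons has no mitochondrial genes and no symbols used here, so ribosomal protein genes were not left out of the length contrast. With a median half-width of 0.61, smaller log2 differences are not resolved for many genes.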
